A study of Mus musculus with 24 samples.

Results

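The 7 genes that encode the subunits of the NMDA receptor were followed in mouse efferent and afferent nerve fibres during postnatal development: Grin1, Grin2a, Grin2b, Grin2c, Grin2d, Grin3a and Grin3b. Members were the gene probes whose gene name on the array is one of these symbols, which gave 17 of 56605 gene probes, between 1 and 3 for each gene. Each gene was represented by the probe with the highest mean over the 24 arrays, and its other probes served as a check. All 7 representative probes passed the filter on dim probes, which asked that some group have the probe above background on each of its 3 arrays. In all, 10 of the 17 probes and 36409 of all gene probes passed it.

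The fibres came from the ventral roots (efferent, EN) and dorsal roots (afferent, AN) of spinal segments L4 to L6 of C57BL/6 mice, at birth (P0) and at ages of 1, 3 and 5 weeks, written 1 W, 3 W and 5 W. The labels name no treatment and no genetic change in any group. Total RNA was hybridised to Agilent 8 × 60K mouse arrays with 1 dye, 3 arrays in each of the 8 groups. The study's methods describe tissue gathered from several animals into 1 tube per group and 3 independent experiments per group, so the p values given here measure the spread between these arrays, part of which may be technical. A root holds axons, Schwann cells, sheath cells, vessels and macrophages, while the cell bodies of motor and sensory neurons lie outside it, and a difference in a whole root cannot tell fewer cells of a type from less RNA per cell.

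The NMDA receptor is a glutamate-gated channel that passes calcium and is blocked by magnesium at resting potential. Every receptor contains the obligatory GluN1 subunit, encoded by Grin1, which binds the co-agonist glycine or D-serine. The GluN2 subunits (Grin2a to Grin2d) bind glutamate and set the kinetics, and the GluN3 subunits (Grin3a and Grin3b) bind glycine and give receptors with less calcium flow. In the brain, Grin2b, Grin2d and Grin3a are known for high expression early in life and Grin2a and Grin2c for a later rise. On sensory neurons, NMDA receptors are known from the terminals in the spinal dorsal horn and from the cell bodies in the ganglion.

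The probes that the results turn on are shown here because their position and composition bear on what was read. Each is printed 5′ to 3′ with G and C in capitals. The Grin2d pair is given in full, since its members differed most in composition, and Grin1 and Grin3a by their first 30 bases.
Grin2d, brightest probe: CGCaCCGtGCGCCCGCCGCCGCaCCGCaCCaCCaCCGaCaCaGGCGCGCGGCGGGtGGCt
Grin2d, second probe: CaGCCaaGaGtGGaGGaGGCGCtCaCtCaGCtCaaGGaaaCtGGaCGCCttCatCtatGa
Grin1, brightest probe: aaGaGGGCtGaGCCttCtCttCtGtCtGCa
Grin3a, brightest probe: CaCtGCttaaaatGCtttCatGtCCtaGGt

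Over its 60 bases the brightest Grin2d probe held 81.7% G and C, against 55% in the second Grin2d probe, 55% in the Grin1 probe and 35% in the Grin3a probe. In the coordinates of the array files (mm9), the brightest probes lay at chr2:25146927-25146986 for Grin1, chr16:9991772-9991831 for Grin2a and chr6:135681653-135681712 for Grin2b. Those of Grin2c and Grin2d lay at chr11:115110671-115110730 and chr7:53088383-53088442, that of Grin3a at chr4:49675661-49675720, all 6 on the minus strand, and that of Grin3b at chr10:79439842-79439901 on the plus strand. Whether a probe falls in an exon, an intron or a UTR was not determined here, since no annotation of this build was used.

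Several arrays stood apart in ways that touch these genes. All 3 W arrays and both replicate 3 arrays of 5 W shared 1 of the 4 slides, slide 4, so that 3 W and this slide can be compared only through those 5 W arrays. The afferent arrays 3 W replicate 3 and 5 W replicate 2 were each the highest of their 3 arrays for 5 of the 7 subunits, and results that changed without both are given in both ways. Each stood out in a different marker list. A list of 13 sensory neuron markers had a mean log2 signal of 12.76 on 3 W AN replicate 3, against 9.27 and 8.94 on the other 3 W AN arrays, while on 5 W AN replicate 2 it was 9.36, between 10.33 and 7.47. The 8 tested of 9 spinal cord neuron markers had a mean of 8.48 on 5 W AN replicate 2, against 7.11 and 6.46, and 7.36 on 3 W AN replicate 3, against 6.75 and 7.14. On 5 W EN replicate 3, 14024 of the 56605 gene probes carried the column's lowest value of 2.67, a floor that only 1 probe shared on 5 W EN replicate 1.

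The labels were checked against markers before the comparisons. Schwann cell markers such as Prx were measured in every group, and their summed signal ranged from 529377 to 652898 on the P0 AN arrays and from 784497 to 848378 on the P0 EN arrays. Of the 10, 3 were called lower in AN at that age, where 1.12% of all tested probes were called. At P0 the EN arrays carried sensory neuron markers at mean log2 signals of 10.96 to 11.37, within the 10.88 to 12.25 of the AN arrays, and the 2 fibre types overlapped in that list at birth. At 1 W the list was lower in EN, at 7.56 to 8.89 against 11.59 to 11.82 in AN, and at 3 W it was 7.50 to 8.09 in EN and 8.94 to 12.76 in AN. At 5 W the fibres overlapped, with 10.33, 9.36 and 7.47 in AN and 7.81, 7.54 and 8.06 in EN, so that 5 W AN replicate 3 lay below every EN array of its age. Markers of motor neurons, whose axons run in the ventral root, were not higher in EN at the later ages: the summed signal of the 6 on the list was 22775 to 29941 in AN and 832 to 2042 in EN at 1 W, 2251 to 71164 and 1209 to 1463 at 3 W, and 1800 to 6561 and 1173 to 1763 at 5 W. Of the 5 that were tested, 2 were called higher in AN at 1 W, 2 at 3 W and 0 at 5 W, and none higher in EN. Of all tested probes, 4.99%, 5.64% and 5.62% were called at these ages. Prph stands in both the motor and the sensory neuron list, so the summed signal is not of motor neuron markers alone. On the motor neuron list, Mnx1 was above background on none of the 24 arrays and Slc5a7, the choline transporter, on 10 of them.

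**Figure D1:**
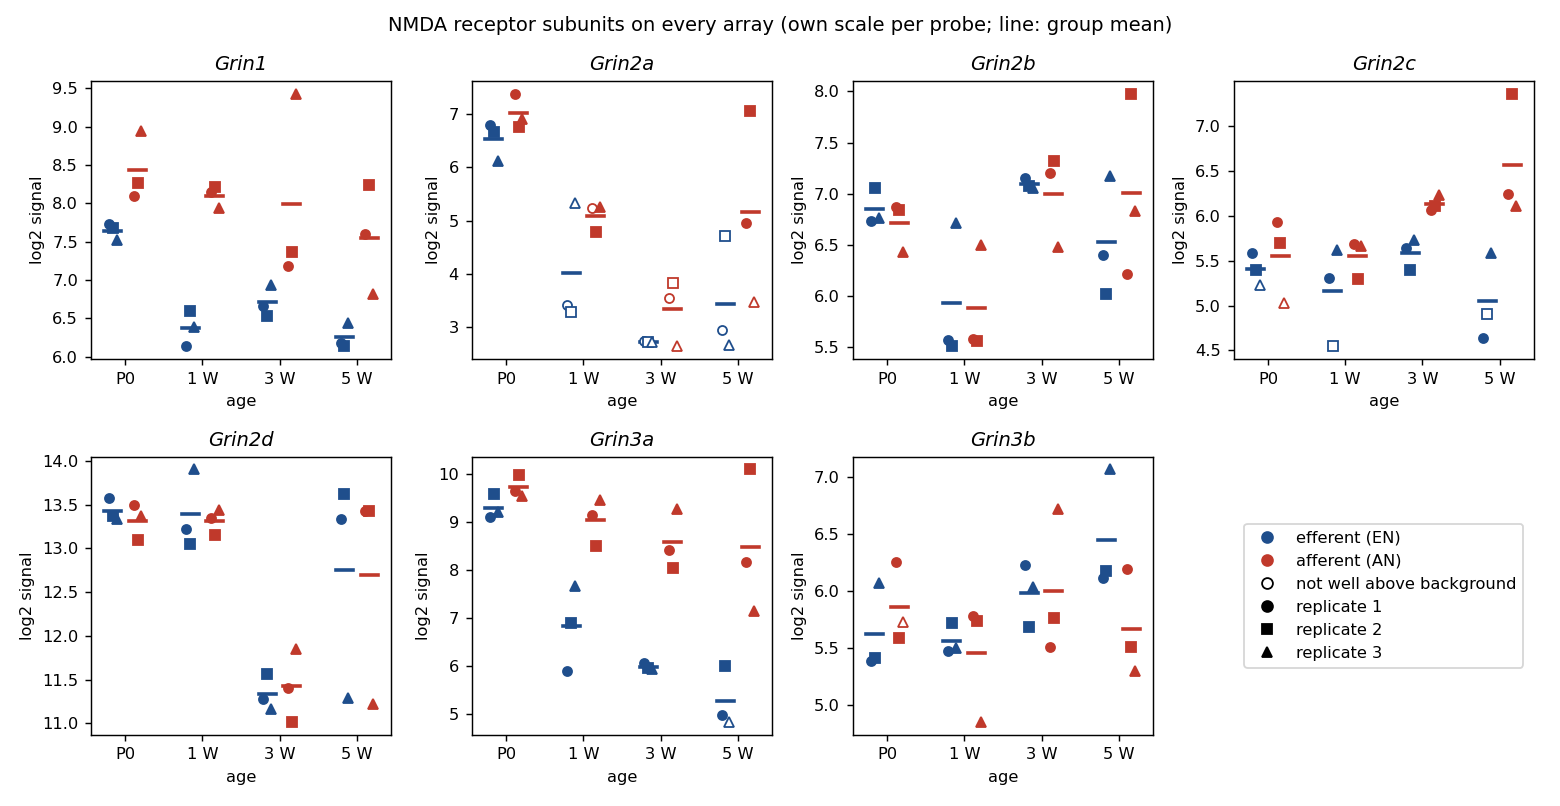
Log2 signal of the brightest probe of each subunit (vertical axis, own scale per panel) on every array, by age (horizontal axis) and fibre (blue, EN; red, AN), with open symbols for arrays where the probe was not well above background and lines at group means. After P0 every AN array lay above every EN array of its age for Grin1 and Grin3a, Grin2a had its highest group means at P0, and Grin2d lay between 11.02 and 11.85 on 8 arrays and above 13 on the others.

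Afferent and efferent fibres were compared first, at each age. A gene counts as called when the fold change exceeded 2 and the p before adjustment was under 0.05. Adjusted p values are by Benjamini and Hochberg over all tested probes. At P0 none of the 7 subunits was called, where 1.12% of all tested probes were called; 0 of the 7 also had an unadjusted p below 0.05. At 1 W, 2 were higher in AN, Grin1 and Grin3a, with 4.99% of all probes called. At 3 W Grin1 and Grin3a were again higher in AN against a background of 5.64%. At 5 W, 4 were higher in AN, Grin1, Grin2a, Grin2c and Grin3a, against 5.62%. No subunit was called lower in AN at any age. On the log2 scale the median difference of the 7 subunits was 0.23 at P0 and 0.39 at 1 W, then 0.55 at 3 W, then 1.30 by 5 W, while that of all tested probes lay between -0.06 and 0.01. Of the 8 calls, 5 also had an adjusted p below 0.05 (2 of them at 1 W, 1 at 3 W, the other 2 at 5 W and 0 at P0), a rule met by 0.327%, 2.79%, 3.11% and 3.31% of all tested probes from P0 to 5 W, and with the replicate number as a block all 8 met it. Of the 8, 5 were called without the afferent arrays 3 W replicate 3 and 5 W replicate 2.

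**Figure D2:**
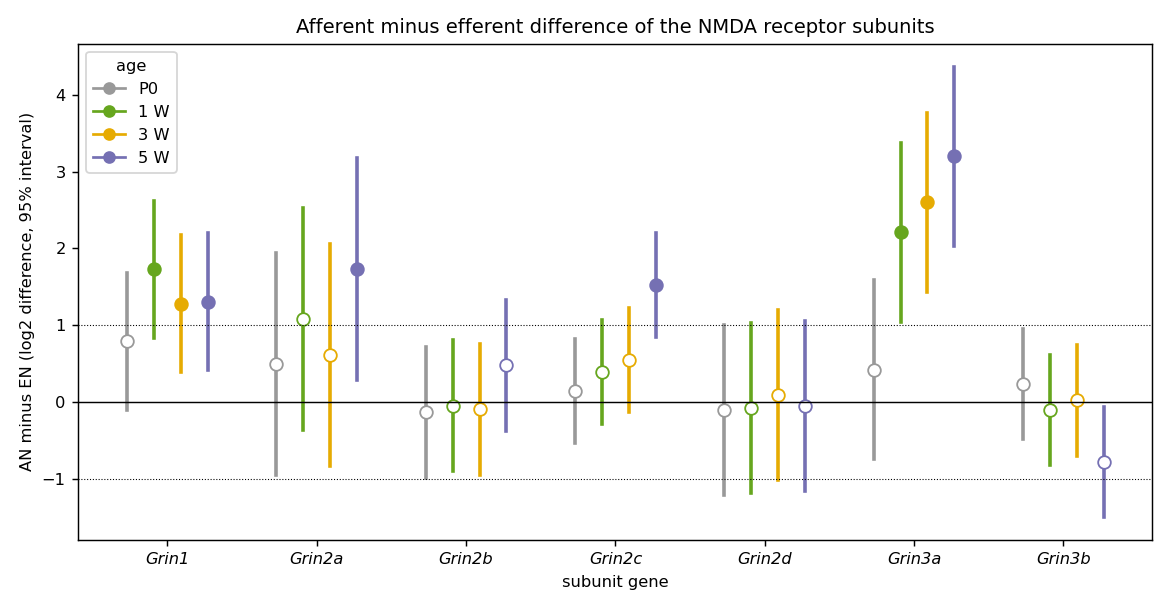
Log2 difference AN minus EN (vertical axis) of each subunit (horizontal axis) at the 4 ages, as the limma estimate with its 95% interval; filled points were called, dotted lines mark a fold change of 2. Grin3a moved from 0.42 at P0 to 3.20 at 5 W, while Grin2b and Grin2d stayed within 0.48 of 0 at every age.

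Grin3a, whose product lowers calcium flow through the receptor, gave the widest separation of the fibres. At P0 its log2 signal was 9.64, 9.98 and 9.55 on the AN arrays and 9.11, 9.59 and 9.21 on the EN arrays. At 1 W it was 9.15, 8.50 and 9.47 in AN and 5.90, 6.91 and 7.68 in EN. The 2 fibre types overlapped at P0 and were apart at 1 W, where every AN array read above every EN array. Values of 8.42, 8.06 and 9.28 were measured in AN at 3 W, against 6.06, 5.95 and 5.95 in EN. By 5 W the AN arrays read 8.17, 10.10 and 7.15 and the EN arrays 4.99, 6.00 and 4.84, the last of them not well above background. At both ages the groups were again apart, and the AN arrays of 5 W had the larger spread (SD 1.50, against 0.63 in EN, n = 3 each). The other Grin3a probes, of other transcript records, were well above background on 2 arrays and on none, so all Grin3a results rest on 1 probe.

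The difference in Grin3a was 0.42 ± 0.56 (SE) at P0. It rose to 2.21 ± 0.56 at 1 W, a 4.63-fold higher signal in AN (limma, adjusted p = 0.0288). At 3 W it was 2.60 (6.06-fold, adjusted p = 0.00937) and at 5 W 3.20 (9.20-fold, adjusted p = 0.00149). AN and EN arrays of the same number shared a slide, so that each pair gives a difference within 1 slide, and all 9 such pairs after P0 had more Grin3a in AN, by 1.60 to 4.11. Without the afferent arrays 3 W replicate 3 and 5 W replicate 2 the differences at 3 W and 5 W were 2.25 and 2.39, and both were still called. Without replicate 1 of every group the difference at 1 W was 1.69 and was not called.

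Within EN, Grin3a was lower than at P0 by 5.56-fold at 1 W (log2 difference -2.48, adjusted p = 0.00293), 9.97-fold at 3 W (-3.32, adjusted p = 6.88e-05) and 16.4-fold at 5 W (-4.03, adjusted p = 6.96e-06). Within slide 3, the 5 W EN array minus the mean of both P0 EN arrays was -3.40, and with the slide as a block the 3 W difference in EN was -1.71, still called. In AN, the corresponding differences were -0.68, -1.14 and -1.25, of which only that at 5 W was called, with an adjusted p of 0.0691. That call was lost with the slide as a block (-0.52) and without any 1 of 5 arrays, the lowest value being -0.59 without 5 W AN replicate 3, while without the afferent arrays 3 W replicate 3 and 5 W replicate 2 the 3 W and 5 W differences were -1.49 and -2.06, both called. These comparisons share their P0 arrays. The order of the group means was P0 AN (9.72), P0 EN (9.30), 1 W AN (9.04), 3 W AN (8.59), 5 W AN (8.47), 1 W EN (6.83), 3 W EN (5.99) and 5 W EN (5.27). Each group overlapped with the next in that order.

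Whether the AN-EN difference itself had changed since P0 was tested as an interaction. For Grin3a it had grown by 1.79 at 1 W, 2.18 at 3 W and 2.78 at 5 W. All 3 were called, with 3.80%, 4.08% and 4.60% of all probes called in these tests, but the adjusted p values were 0.616, 0.315 and 0.109. Grin2c at 5 W was the other interaction called, and without pairs 0 of the 21 tests were called on the adjusted p. With the replicate number as a block, which the pairing of AN and EN allows, 1 of them was, Grin3a at 5 W (adjusted p = 0.0169).

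Grin1, the subunit that every NMDA receptor contains, was higher in AN at all ages and was called from 1 W. At P0 the AN signals were 8.09, 8.26 and 8.94 and the EN signals 7.73, 7.68 and 7.52. They were 8.14, 8.21 and 7.93 in AN at 1 W and 6.13, 6.59 and 6.39 in EN. Both ages showed no overlap, although the P0 difference of 0.79 was not called (adjusted p = 0.807). At 3 W the AN arrays read 7.18, 7.37 and 9.43 and the EN arrays 6.67, 6.53 and 6.94. At 5 W they read 7.60, 8.24 and 6.82 in AN and 6.17, 6.14 and 6.44 in EN. Every AN array again lay above every EN array of its age, with 1 AN array far above the others at 3 W.

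The Grin1 difference was largest at 1 W, at 1.73 ± 0.43 (SE) or 3.31-fold (adjusted p = 0.0255). It was 1.28 at 3 W (adjusted p = 0.0867) and 1.30 at 5 W (adjusted p = 0.0755), so these calls rest on the unadjusted p, while with the replicate number as a block the adjusted p values were 0.0437 and 0.0380. All 12 same-slide pairs had more Grin1 in AN, by 0.36 to 2.49. Without the afferent arrays 3 W replicate 3 and 5 W replicate 2 the difference fell to 0.56 at 3 W and 0.96 at 5 W, below the fold threshold. In EN, Grin1 was lower than at P0 at 1 W (-1.27, adjusted p = 0.0331) and at 5 W (-1.39, adjusted p = 0.0100), and the difference of -0.93 at 3 W stayed under the fold threshold. In AN none of the 3 ages was called against P0, with differences of -0.33, -0.44 and -0.88. Without those 2 arrays Grin1 in AN was called lower at 3 W (-1.16) and at 5 W (-1.22). From highest to lowest, the Grin1 group means were P0 AN (8.43), 1 W AN (8.10), 3 W AN (7.99), P0 EN (7.64), 5 W AN (7.55), 3 W EN (6.71), 1 W EN (6.37) and 5 W EN (6.25), and neighbours overlapped throughout.

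The second tested Grin1 probe, of another transcript record, was well above background on 9 of 24 arrays, 6 of them at P0. It passed the filter on dim probes only through the P0 groups, so its tests against P0 are not independent of the filter. It read 6.05 to 6.63 at P0 in both fibres and at most 6.19 afterwards. In contrast to the brightest probe it was called lower than P0 at every age in AN as well as in EN. In EN, where it was at background at all later ages, it was at least 2.67-fold lower at 1 W and 3 W and at least 2.38-fold at 5 W. In AN it was 4.05-fold lower at 1 W, at least 3.45-fold at 3 W and 4.31-fold at 5 W. The third probe was at background on all arrays.

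Grin2a, which gives the receptor fast kinetics, was well above background on 10 arrays, all 6 of P0 among them. Its probe passed the filter on dim probes only through the P0 groups, where it was high. The tests of Grin2a against P0 are therefore not independent of the filter. The AN arrays read 7.38, 6.76 and 6.91 at P0 and the EN arrays 6.80, 6.66 and 6.12. At 1 W the AN arrays read 5.24, 4.78 and 5.25 and the EN arrays 3.42, 3.28 and 5.34, all 3 of EN and the first of AN not well above background. At 3 W all 6 arrays were at background, between 2.64 and 3.83. By 5 W the AN arrays differed widely, at 4.97, 7.06 and 3.48, and the EN arrays of 2.95, 4.71 and 2.67 were at background. The P0 groups lay above all later groups except for that AN array of 7.06, replicate 2.

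With the dim group bounded by the background limit of its arrays, Grin2a in EN was at least 3.07-fold lower at 1 W than at P0, at least 3.14-fold at 3 W and at least 2.80-fold at 5 W (adjusted p = 0.0109, 0.000151 and 0.000961). In AN it was 3.80-fold lower at 1 W (adjusted p = 0.0535), at least 4.93-fold lower at 3 W (adjusted p = 0.000223) and 3.60-fold lower at 5 W (adjusted p = 0.0321). With the slide as a block the 3 W differences shrank to -1.37 in EN and -1.25 in AN and were no longer called, nor was that at 5 W in AN (-0.65), which was also lost without 5 W AN replicate 3 (-1.0). Higher Grin2a in AN at 5 W was a bound of at least 1.09-fold (unadjusted p = 0.0220 in limma, adjusted p = 0.153, and 0.0126 with the replicate number as a block), and without the afferent arrays 3 W replicate 3 and 5 W replicate 2 its difference fell to 0.78 and was not called, as also without 5 W EN replicate 1 (1.48) or 3 (1.34). At 1 W, with EN at background, Grin2a in AN was at least 1.13-fold higher, which was not called without pairs and was called with the replicate number as a block (adjusted p = 0.108). The other Grin2a probes, which share a transcript record that the brightest probe does not carry, were well above background on 2 arrays and on none. The course therefore rests on 1 probe and its transcript record.

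Grin2b, a subunit of slow kinetics typical of young neurons, was called between the fibres at no age. Signals at P0 were 6.87, 6.84 and 6.42 in AN and 6.74, 7.05 and 6.76 in EN. At 1 W they were 5.57, 5.56 and 6.50 in AN and 5.57, 5.50 and 6.71 in EN, with replicate 3 about 1 log2 unit above the others in both fibres. At 3 W they were 7.21, 7.32 and 6.48 in AN and 7.15, 7.08 and 7.05 in EN. In AN at 5 W, replicate 2 stood at 7.98 beside 6.22 and 6.83, while EN read 6.40, 6.02 and 7.17. The groups of the 2 fibres overlapped at all 4 ages, and the AN-EN difference lay between -0.14 and 0.48, with 95% intervals that reached from -0.99 to 1.33.

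Between 1 W and 3 W Grin2b rose in both fibres, by 1.17 in EN (adjusted p = 0.0399) and 1.12 in AN (adjusted p = 0.0443), where 13.6% and 14.3% of all probes were called. With the slide as a block the rises were 0.80 and 0.76 and were not called, and in EN the rise was also under the fold threshold without 1 W replicate 1 (0.99) or 2 (0.95), in AN without 1 W replicate 1 (0.97) or 2 (0.96) or 3 W replicate 2 (0.96). The second tested Grin2b probe passed the filter on dim probes only through the 3 W groups, so its tests of 3 W are not independent of the filter. It was near background at P0 and above it on all 6 arrays at 3 W, at 5.73 to 6.73. At 3 W it was at least 2.88-fold higher than at P0 in EN and at least 2.66-fold in AN. For the brightest probe the same differences were 0.24 and 0.29. The 2 probes correlated at r = 0.21 over the 24 arrays. The third was at background throughout.

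Grin2c, in the brain a subunit of the mature cerebellum, was called between the fibres only at 5 W on its brightest probe. It read 5.93, 5.69 and 5.03 in AN at P0 and 5.59, 5.40 and 5.23 in EN, with the replicate 3 array of each fibre not well above background. At 3 W it read 6.06, 6.11 and 6.23 in AN and 5.64, 5.39 and 5.73 in EN. The groups overlapped at P0 and were apart at 3 W by a narrow margin. At 5 W it read 6.24, 7.36 and 6.11 in AN and 4.64, 4.91 and 5.59 in EN, again without overlap. Replicate 2 of EN was not well above background at that age. The 1 W arrays read 5.69, 5.30 and 5.66 in AN and 5.31, 4.54 and 5.62 in EN, with overlap and with replicate 2 of EN not well above background.

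At 5 W Grin2c was 2.87-fold higher in AN (1.52 ± 0.32, SE, adjusted p = 0.00657), with all 3 pairs higher by 0.52 to 2.45. With normexp background correction that difference was 0.67 and was not called. In AN it was 2.02-fold higher at 5 W than at P0 (adjusted p = 0.0129), the only rise since P0 called on a brightest probe, and in EN the change was -0.36. Without the afferent arrays 3 W replicate 3 and 5 W replicate 2 the AN-EN difference was 1.13 and still called, while the rise in AN was 0.62 and was not, as also without P0 AN replicate 3 (0.76). The second Grin2c probe passed the filter on dim probes only through the 3 W AN group, where it was high. Its tests between the fibres are therefore not independent of the filter. At 5 W it read at least 1.44-fold higher in AN (limma, adjusted p = 0.0413). Its 5 W AN arrays ranged from 3.67 to 7.67, with 2 of the 3 well above background.

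**Figure D3:**
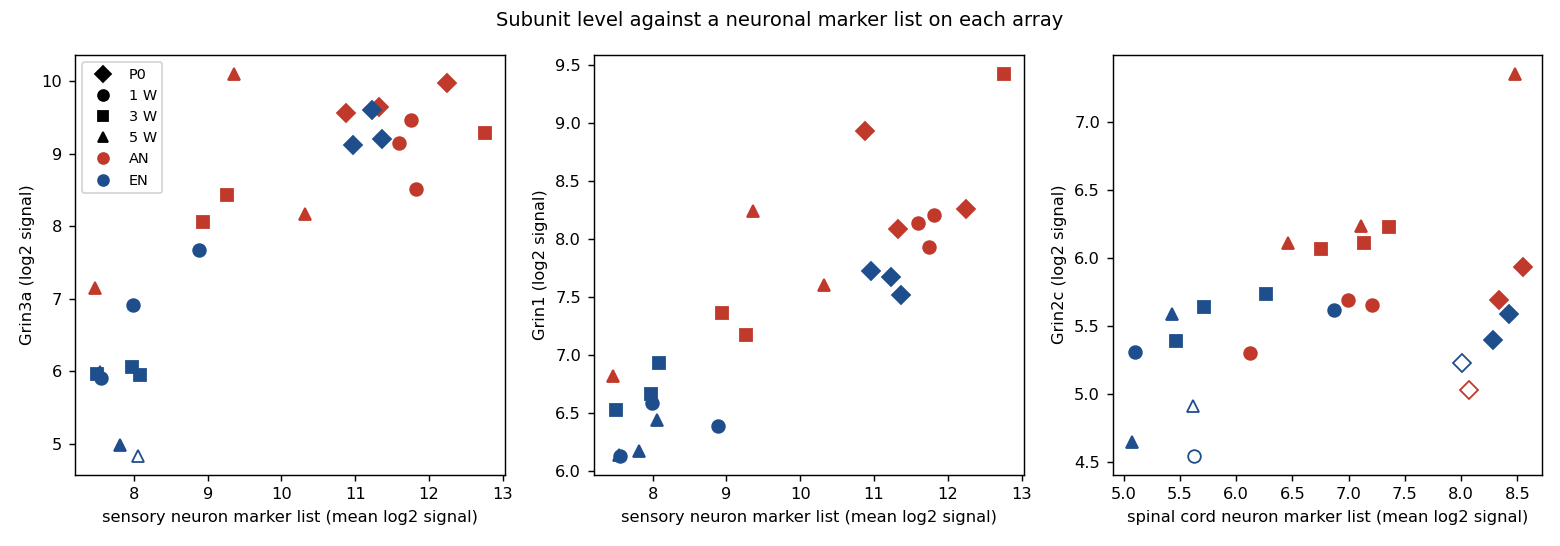
Log2 signal of Grin3a, Grin1 and Grin2c (vertical axes) on each of the 24 arrays against the mean log2 signal of the sensory neuron marker list (left and middle) or the spinal cord neuron marker list (right), by age (symbol) and fibre (red, AN; blue, EN; open, not well above background). The P0 arrays of both fibres lie at high marker levels. In the left and middle panels the EN arrays after P0 lie at low marker levels and low Grin1 and Grin3a. In the right panel 1 W EN replicate 3 lies at a marker level of 6.87, above 1 W AN replicate 2 at 6.13.

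Neuronal marker lists were read beside the calls in Grin1, Grin3a and Grin2c, and the sensory and spinal cord neuron lists differed at 5 W. The mean log2 signal of the tested spinal cord neuron markers was 7.11, 8.48 and 6.46 on the 5 W AN arrays. On the 5 W EN arrays it was 5.08, 5.62 and 5.43, so every AN array lay above every EN array in that list. On 5 W AN replicate 3 the sensory neuron list (7.47) lay below every 5 W EN array. Grin1 (6.82) and Grin3a (7.15) on that array lay above every 5 W EN array. Of the 13 sensory neuron markers, 0 were called between the fibres at P0, while 9 were higher in AN at 1 W, then 10 at 3 W but 1 at 5 W, with median log2 differences of 0.35, 4.93, 3.18 and 1.32. Of all tested probes, 1.12%, 4.99%, 5.64% and 5.62% were called between the fibres from P0 to 5 W. These shares also stand beside the counts of the other lists between the fibres. In EN, 9, 10 and 10 of the 13 sensory neuron markers were lower than at P0 at the 3 later ages. Of all tested probes, 13.5%, 31.4% and 30.7% were called in these comparisons. Of the 8 spinal cord neuron markers that were tested, such as the GABA transporter Slc32a1, 1 was called higher in AN at 1 W, 3 at 3 W and 5 at 5 W. The summed signal of all 9 was 1405 to 7125 in AN at 5 W and 586 to 728 in EN, and Tlx3, the ninth, was above background on 5 arrays and was not tested. Astrocyte markers were called higher in AN for 3, 2 and 3 of 6 at the later ages and oligodendrocyte markers for 2, 2 and 5 of 7. Between P0 and 5 W, 4 of 10 Schwann cell markers were called higher in EN and 7 of 10 in AN, where 30.7% and 28.9% of all probes were called. The part of these shifts in the subunit differences was not tested.

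Grin2d, a subunit of very slow kinetics, split by slide. The brightest probe read 13.05 to 13.90 on the 16 arrays of slides 1 to 3 and 11.02 to 11.85 on the 8 arrays of slide 4, with no overlap. At 3 W its signals were 11.41, 11.02 and 11.85 in AN and 11.28, 11.57 and 11.16 in EN, against 13.09 to 13.58 at P0 over both fibres. At 5 W, replicates 1 and 2 read 13.43 and 13.43 in AN and 13.34 and 13.63 in EN, whereas replicate 3, on slide 4, read 11.22 and 11.29. Replicate 3 minus the mean of replicates 1 and 2 was -2.19 in EN and -2.21 in AN.

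In the test Grin2d was lower at 3 W than at P0 in EN (-2.09, adjusted p = 0.00270) and in AN (-1.89, adjusted p = 0.00572). With the slide as a block both turned into small positive values, 0.25 and 0.44, that were not called. Within slide 4, 5 W minus 3 W was -0.049 in EN and -0.20 in AN. Between the fibres Grin2d differed by -0.11 to 0.09 over the 4 ages, with intervals that reached from -1.21 to 1.19. The probe's share of G and C placed it among the 18 tested probes with 80% or more, whose median 3 W minus P0 difference was 0.18 in EN and -0.20 in AN, against 0.04 and 0.01 over all tested probes. The second Grin2d probe was well above background on 2 of 24 arrays. Slide 4 was the only slide scanned on 1 of the 3 scan days, so slide and scan day cannot be told apart. The cause of the split by slide was not tested.

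**Figure D4:**
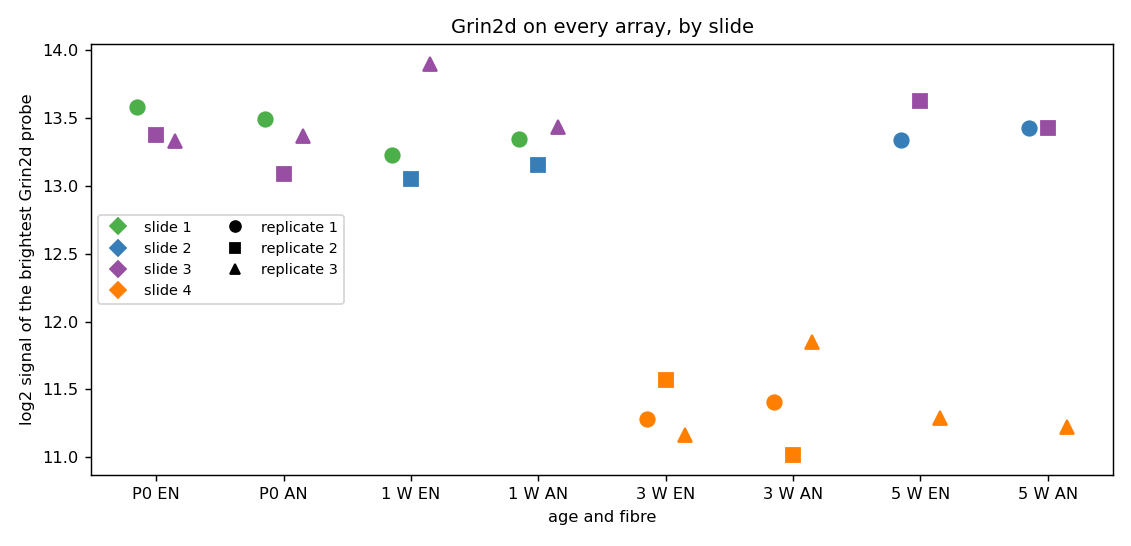
Log2 signal of the brightest Grin2d probe (vertical axis) on each array by age and fibre (horizontal axis), with colour for the slide and symbol for the replicate. All 8 arrays of slide 4, both 5 W replicate 3 arrays included, lie between 11.02 and 11.85, and all other arrays lie above 13.

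Grin3b, known in adult motor neurons, was called in no comparison. It read 6.26, 5.59 and 5.73 in AN at P0 and 5.39, 5.42 and 6.07 in EN. At 1 W the signals were 5.78, 5.73 and 4.85 in AN and 5.47, 5.72 and 5.50 in EN, and at 3 W 5.51, 5.77 and 6.72 in AN and 6.23, 5.68 and 6.03 in EN. At 5 W it read 6.19, 5.51 and 5.30 in AN and 6.11, 6.17 and 7.06 in EN. The groups overlapped at every age. Its difference at 5 W was -0.78, lower in AN, with an unadjusted p of 0.0343 in limma and an adjusted p of 0.196, and under the fold threshold. In EN it was 0.82 higher at 5 W than at P0 (unadjusted p = 0.0271 in limma), also under that threshold. Without 5 W AN replicate 1 the AN-EN difference at 5 W was -1.05 and called, and without P0 EN replicate 3 the difference in EN was 1.05 and called. The gene has 1 probe on the array, so no second reading was at hand.

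**Figure D5:**
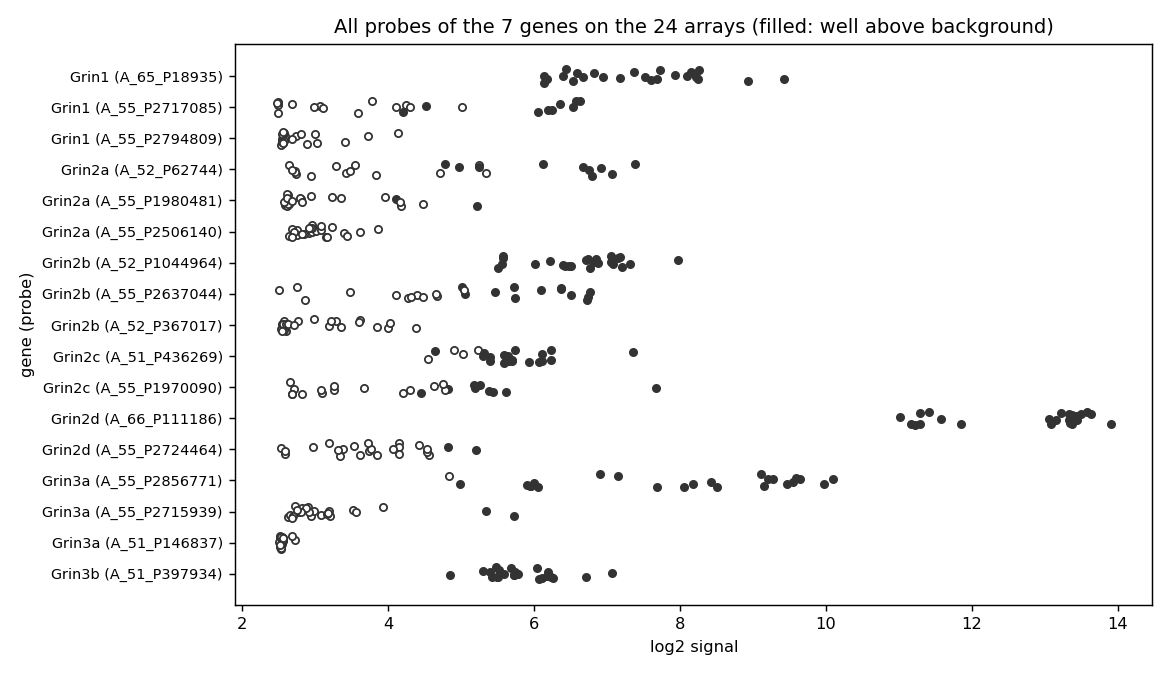
Log2 signal of all 17 probes of the 7 genes (vertical axis, gene and probe) on the 24 arrays (points; filled, well above background). Signals of different probes are not comparable in level. Of the 10 probes other than the brightest, 3 passed the filter and 7 lay at or near background.

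Over time, 3 of the 7 subunits were lower than at P0 in EN at each later age, where 13.5%, 31.4% and 30.7% of all probes were called at 1 W, 3 W and 5 W. Grin2a and Grin3a were among them each time, with Grin1 at 1 W and 5 W and Grin2d at 3 W. The Grin2a probe had passed the filter only through its P0 groups. In AN, 1, 2 and 3 subunits were called at these ages, against 10.3%, 28.7% and 28.9%. They were Grin2a at all 3 ages, Grin2d at 3 W and, at 5 W, Grin3a downward and Grin2c upward. With the slide as a block 2 of these 6 calls in AN remained, Grin2a at 1 W and Grin2c at 5 W, and Grin2d at 3 W turned to 0.44. The median difference from P0 was -0.92, -0.93 and -0.68 in EN and -0.40, -0.44 and -0.63 in AN, while that of all tested probes was 0.01 to 0.06. At 5 W the median in both fibres was the value of Grin2d, whose probe split by slide. With the slide as a block that value was 0.19 in EN and 0.25 in AN, so the 5 W medians do not show a fall of the family. Between 3 W and 5 W, where 3.85% of all probes were called in EN and 3.95% in AN, Grin2d was called higher in both fibres and Grin2a in AN, none with an adjusted p below 0.05.

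Genes that anchor and traffic the receptor were read from a list of 23, all tested. None was called between the fibres at P0. At 1 W, 6 were higher in AN, at 3 W 5 were higher and 1 lower, and at 5 W 5 were higher, with 4.99%, 5.64% and 5.62% of all tested probes called. The median difference was 0.09, 0.45 and 0.35 at these ages. Neto1, an auxiliary protein of glutamate receptors, was 5.12-fold higher in AN at 1 W and 5.76-fold at 3 W, where 1 of 3 EN arrays measured it, and at least 3.70-fold at 5 W, where none did (adjusted p = 0.0205, 0.0113 and 0.00535). Dlgap3, a postsynaptic scaffold, was higher by 2.61 (log2) at 1 W (adjusted p = 0.0141). Dlg2, which encodes PSD-93, was at least 3.77-fold higher at 3 W, with all EN arrays at background (adjusted p = 0.0146). Ephb2, a receptor tyrosine kinase that binds the NMDA receptor, was higher by 1.65 at 5 W (adjusted p = 0.000681). The gene lower in AN at 3 W was Dlgap2, another scaffold (-1.15, adjusted p = 0.0397), named after its value was seen. Against P0 in EN, 7, 9 and 8 of the 23 were called at the 3 later ages, 7 of them lower each time, where 13.5%, 31.4% and 30.7% of all probes were called, so that the shares at 3 W and 5 W were near the background. In AN 2, 6 and 7 were called, 1, 4 and 5 of them lower, where 10.3%, 28.7% and 28.9% of all probes were.

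Of 21 genes that act downstream of the receptor, 19 were tested. At 1 W 4 were higher in AN, at 3 W 3 and at 5 W 2, beside 4.99%, 5.64% and 5.62% of all tested probes called, and none was called at P0 or called lower. The median difference was 0.18, 0.24 and 0.19. Camk2a, a kinase that binds the active receptor, was higher in AN by 1.99, 2.54 and 2.52 (adjusted p = 0.0263, 0.00457 and 0.00384). Camk4, the nuclear calcium kinase, was higher by 2.28 at 1 W (adjusted p = 0.00385), and Rasgrf2, a calcium-regulated Ras activator, by 2.21 (adjusted p = 0.00664). Camk4 was lower at 5 W than at P0 in EN (-3.06, adjusted p = 2.70e-06) and in AN (-2.37, adjusted p = 5.19e-05). Fyn, a kinase that phosphorylates GluN2 subunits, was lower than at P0 at 5 W in EN (-1.56, adjusted p = 8.30e-07).

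Supply and removal of the co-agonists glycine and D-serine were read from 14 genes, all tested. At P0, 1 W and 3 W none of the 14 was called between the fibres, and at 5 W 4 were higher in AN, beside 5.62% of all tested probes called, with a median difference of 0.25. Slc6a5, the neuronal glycine transporter, was at least 2.54-fold higher, with all EN arrays at background (adjusted p = 0.0192). Slc6a9, the glial glycine transporter, was higher by 1.25 (adjusted p = 0.0197), and Slc7a10, which carries D-serine, by 1.14 (adjusted p = 0.0448). The other gene called was Dao, D-amino acid oxidase, by 1.77 (adjusted p = 0.0677), named after its value was seen. Slc6a5 also stands in the list of spinal cord neuron markers. Within each fibre the changes since P0 were alike in direction for Gldc, of the glycine cleavage system, which was lower at 5 W (-3.12 in EN, adjusted p = 7.77e-11, and -2.96 in AN, adjusted p = 1.44e-10). Srr, the enzyme that makes D-serine, was higher at 5 W by 1.79 in EN (adjusted p = 2.56e-10) and by 1.48 in AN (adjusted p = 2.79e-09). Slc1a5, an amino acid exchanger, was higher by 2.08 in EN (adjusted p = 1.50e-06).

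For each subunit the 3 genes most like it over the 24 arrays were taken from 16898 genes, each read by 1 tested probe, as a description. These arrays share ages, slides and tissue makeup. Grin3a was most like Adgrb1, Tcerg1l and Syt16 (r = 0.98 each), and among those most like Grin1 were Inpp5j and Unc80 (r = 0.94 each). Grin2a was most like Ipw (r = 0.95), Grm3 (0.94) and Ccin (0.93), and Grin2c most like Baiap3 (0.89), Phyhip (0.86) and Kcnj9 (0.86). The genes most like Grin2d were Gm518, Samd11 and Gm3772 (r = 0.96 each). The closest to Grin2b were Pus7 (0.82), Ahi1 (0.80) and Glra1 (0.78), and to Grin3b Urm1 (0.75), Rhox3f (0.72) and Dpcd (0.70). Among the subunits themselves Grin1 and Grin3a were the most alike (r = 0.85), followed by Grin2a and Grin3a (0.79).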

How the data were processed

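Per the labels, each array held 1 Cyanine-3 labelled sample. The authors deposited scanner intensity files from Feature Extraction 10.7.1.1 (per the submitters' processing notes) and 1 table of log2 values, quantile normalized per their methods, whose columns each correlated best with their own array (r of at least 0.999996). These log2 values were used. Well above background marks, gene names, probe sequences and mm9 positions came from the scanner files, where median signal was 45.4 to 191 over background of 23 to 46, and the lowest signal well above background was 3.71 to 5.87 (log2). The 36409 probes well above background on all 3 arrays of a group were fitted with limma 3.58.1 in R 4.3.3 as 8 group means over all 24 arrays, with moderated variances (16 residual degrees of freedom per probe, 18.4 after moderation). Calls used the thresholds that the methods name, without stating whether p was adjusted. P values are two-sided, with Benjamini-Hochberg adjustment. A group dim on every array gives only a bound, with each array's limit in place of a lower value. Named beside the 7 members were at most 4 list genes of lowest p per comparison and the 3 genes of highest r. One of the latter is not reported here. Replicate numbers paired AN with EN of an age (deviations correlated at 0.107 to 0.646 in all 12 pairs, on the same slide), but not later ages with P0. The fit was tested on simulated data. Alternatives were other normalizations, filters, blocks and left-out arrays. Members and lists were chosen with earlier results of these data known. Python 3.11.15 with pandas 2.3.3 and matplotlib 3.10.9 drew the figures.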

Additional observations from a re-analysis of the deposited data

Results flagged for a closer look

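In 4 tests the difference between afferent and efferent fibres was not the same at a later age as at P0, by an interaction contrast in limma. For Grin3a the AN-EN difference had grown by 1.79 at 1 W, 2.18 at 3 W and 2.78 at 5 W (log2). For Grin2c it had grown by 1.38 at 5 W (adjusted p = 0.187). All 3 pairs of arrays favoured AN in each of these groups. None of the 4 passed an adjusted p of 0.05 without pairs, and with the replicate number as a block Grin3a at 5 W did (adjusted p = 0.0169). Without the afferent arrays 3 W replicate 3 and 5 W replicate 2 the values for Grin3a were 1.79, 1.83 and 1.97, and for Grin2c 0.98, which was under the fold threshold. The 1 W value for Grin3a also lost its call without any 1 of 6 arrays, at 1.33 without 1 W EN replicate 1, and the 5 W value for Grin2c without 5 W AN replicate 2 alone. The Dixon test was not run, since each group holds 3 arrays.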

How the results depend on the processing

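Of the 119 subunit comparisons, 35 were called, and 7 of these kept direction and call under every alternative that gave a value: Grin1 between the fibres at 1 W, Grin3a between the fibres at 3 W and 5 W, Grin3a in EN at 1 W, 3 W and 5 W against P0, and Grin2a in EN at 5 W. The Grin2a probe had passed the filter on dim probes only through its P0 groups. Of the 84 comparisons not called, 62 were called under no alternative. With the slide as a block, 7 called values changed sign: for Grin2d 3 W minus P0 became 0.25 in EN and 0.44 in AN, 3 W minus 1 W 0.19 and 0.36, and 5 W minus 3 W -0.054 and -0.20, and for Grin2a in AN 3 W minus 1 W became 0.23. In the fit the slide term rests on few arrays shared between ages, and whether slide or age set these values was not tested. The 8 calls between the fibres became 4 with normexp background correction, 3 with probes above background on all 24 arrays, 5 with the adjusted p and 5 without the afferent arrays 3 W replicate 3 and 5 W replicate 2 (an alternative chosen after seeing the data), and 6 to 9 when arrays or replicate numbers were left out in turn. The 9 calls against P0 in EN became 3 with that background filter, which keeps only Grin1, Grin2b and Grin2d, and 6 to 11 with arrays left out. The 6 in AN became 1 with the filter, 2 with the slide block, 10 with the mean of a gene's tested probes and 3 to 8 with arrays left out. The 4 changes of the AN-EN difference became 2 with normexp, 0 with the filter, 0 with the adjusted p and 2 to 5 with arrays left out. With the replicate number as a block, which paired AN with EN, 9 calls were made between the fibres, Grin2a at 1 W being added, and Grin2a at 5 W joined the changed differences. On the adjusted p, the block moved the calls between the fibres from 5 to 8 and the changed differences from 0 to 1. Probes near background, as for Grin2a, Grin2c and Grin3b on some arrays, limit the precision, as do 3 arrays per group.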
